A study of Mus musculus with 22 samples.

Results

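The 10 mouse genes described here encode the enzymes that make, interconvert and break down polyamines, and the machinery that uses the polyamine spermidine to modify the translation factor eIF5A. They are Odc1, Azin1, Amd1, Srm, Sms, Sat1, Smox, Eif5a, Dhps and Dohh, chosen by symbol, and all 10 were found among the 35255 genes listed in the 3 count tables of the study. RNA was sequenced from 22 samples of C57BL/6N background in 6 groups, with 3 VISTA KO and 3 WT samples from day 7 of the MC38 experiment, labelled as tumor tissue, 4 VISTA KO and 4 WT bone marrow myeloid cultures at 24 hours of hypoxia, and 4 VISTA KO and 4 WT cultures at day 4 of normoxia. VISTA, encoded by Vsir, is an inhibitory immune checkpoint receptor that is abundant on myeloid cells, and MC38 is a mouse colon carcinoma line. The normoxia cultures were grown from bone marrow progenitors with GM-CSF and IL-6, and their myeloid-derived suppressor cells (MDSC, myeloid cells that restrain T cells) were purified as independent biological replicates. For the hypoxia and tumor samples no source used here states independence, so p-values there measure the spread between these samples, which may be technical. The KO allele, the age and sex of the mice, and whether the tumor samples were enriched for myeloid cells are not given in the sources used here.

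Polyamines are small positively charged molecules that bind nucleic acids and are needed for growth and translation. Ornithine decarboxylase, the product of Odc1, turns ornithine into putrescine, and spermidine synthase (Srm) and spermine synthase (Sms) then add aminopropyl groups that come from S-adenosylmethionine after the enzyme encoded by Amd1 has decarboxylated it. Spermidine also donates the aminobutyl group that deoxyhypusine synthase (Dhps) attaches to eIF5A, which deoxyhypusine hydroxylase (Dohh) then completes to hypusine, an amino acid known only from eIF5A. In myeloid cells the pathway draws on ornithine made by arginase, and the study's title names polyamines beside STAT3 as a route of VISTA action. Protein, enzyme activity and hypusine were not measured here, only RNA.

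Among the 10 genes, only Sms passed the test described below as lower in KO cultures in both conditions. The bases upstream of the start are shown for Sms, and for Odc1 and Eif5a, whose RNA separated the hypoxia groups. They are from RefSeq (GRCm38.p6), run 5′ to 3′ on the strand of the gene, and end at the last base before the annotated gene. Capitals mark the E-box CACGTG, the hexamer bound by MYC with its partner MAX, and E-boxes in the Odc1 gene are textbook MYC sites.
Odc1, chr12:17544623-17544793, plus strand: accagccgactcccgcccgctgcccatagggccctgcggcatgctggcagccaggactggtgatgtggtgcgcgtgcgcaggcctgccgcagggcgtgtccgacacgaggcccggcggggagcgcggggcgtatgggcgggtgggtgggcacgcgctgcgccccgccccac
Sms, chrX:157492288-157492537, minus strand: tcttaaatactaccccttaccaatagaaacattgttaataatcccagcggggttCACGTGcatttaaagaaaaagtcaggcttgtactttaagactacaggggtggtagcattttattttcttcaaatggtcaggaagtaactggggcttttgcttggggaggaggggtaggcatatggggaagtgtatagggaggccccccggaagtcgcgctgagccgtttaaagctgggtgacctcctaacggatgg
Eif5a, chr11:69921959-69922208, minus strand: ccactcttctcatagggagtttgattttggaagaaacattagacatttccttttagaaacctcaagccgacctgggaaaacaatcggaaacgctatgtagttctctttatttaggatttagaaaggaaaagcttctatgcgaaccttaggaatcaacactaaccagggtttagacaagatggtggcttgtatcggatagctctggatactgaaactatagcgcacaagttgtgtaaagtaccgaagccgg

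RefSeq windows were at hand for 8 of the 10 genes, not for Srm and Azin1. The 250 bases before each start site were searched on both strands for 4 motifs, namely CACGTG, the hypoxia response core ACGTG, the STAT motif TTCNNNGAA and the CRE motif TGACGTCA. Any CACGTG also contains ACGTG. The Sms sequence holds CACGTG 196 bases before the more upstream of its 2 start sites, and the window of the other has none. The windows of 3 of the 6 Eif5a start sites hold it 74, 185 and 178 bases before them, of which the first 2 are 1 and the same E-box, and the window of the most upstream site shown above has none. In the windows of Odc1, Amd1, Sat1, Smox, Dhps and Dohh none of the 4 motifs was found. Over all 32851 windows of the same length, 6.02% held CACGTG, 16.6% ACGTG, 7.02% TTCNNNGAA and 1.55% TGACGTCA. These letter matches describe the windows and do not show binding, and a window without a match says nothing of the factor.

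Total counts were 19119985 to 23089943 in tumor KO and 27452024 to 31716200 in tumor WT, 30839108 to 31385825 in the hypoxia samples and 23409142 to 23722932 in the normoxia samples. Levels are CPM, read counts scaled by library size with one TMM (trimmed mean of M values) correction over all 22 libraries. Vsir was at 119 to 131 CPM in tumor KO and 455 to 504 in tumor WT, at 114 to 167 in hypoxia KO and 527 to 618 in hypoxia WT, and at 130 to 231 in normoxia KO and 620 to 796 in normoxia WT. Reads from Vsir were thus fewer in every KO library, and the deleted part of the gene is not given in the sources used here. In a principal component analysis normoxia KO replicate 4 and normoxia WT replicate 3 stood apart from their groups, and the normoxia KO over WT value of each of the 10 genes is given with and without both. Of 9 myeloid genes, Ptprc, Itgam, Spi1, Lyz2, Fcgr3 and Tyrobp were at 260 CPM or more in every group. Cd14 was at 73 to 162 CPM in normoxia and at 352 or more in hypoxia and tumor. S100a8 was at 1.65 to 4.05 CPM in tumor, against 2680 or more in the cultures. S100a9 was at 0.076 to 1.65 CPM in tumor, against 6120 or more in the cultures. In the tumor samples 5 epithelial genes summed to 25.4 to 60.5 CPM in KO and 17.5 to 37.3 in WT, mostly Cdh1. Epcam was at 0 to 0.69 CPM in tumor KO and 0.15 to 0.72 in tumor WT. Krt8 was at 0 to 5.72 CPM in tumor KO and 0.10 to 0.57 in tumor WT, against 0.064 or less in the cultures. The 5 genes summed to 111 to 173 CPM in hypoxia KO and 254 to 296 in hypoxia WT. In normoxia the sums were 42.5 to 73.8 CPM in KO and 64.6 to 93.2 in WT, and Cdh1 made up most of them in all cultures. The 4 fibroblast genes summed to 97.8 to 119 CPM in tumor KO and 74.3 to 98.7 in tumor WT. Of the sex-linked genes searched, Xist was at 25.9 CPM or more in every library. Ddx3y, Eif2s3y, Kdm5d and Uty were listed in no count table. In bulk RNA, fewer cells of a type and less RNA per cell cannot be told apart.

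**Figure D1:**
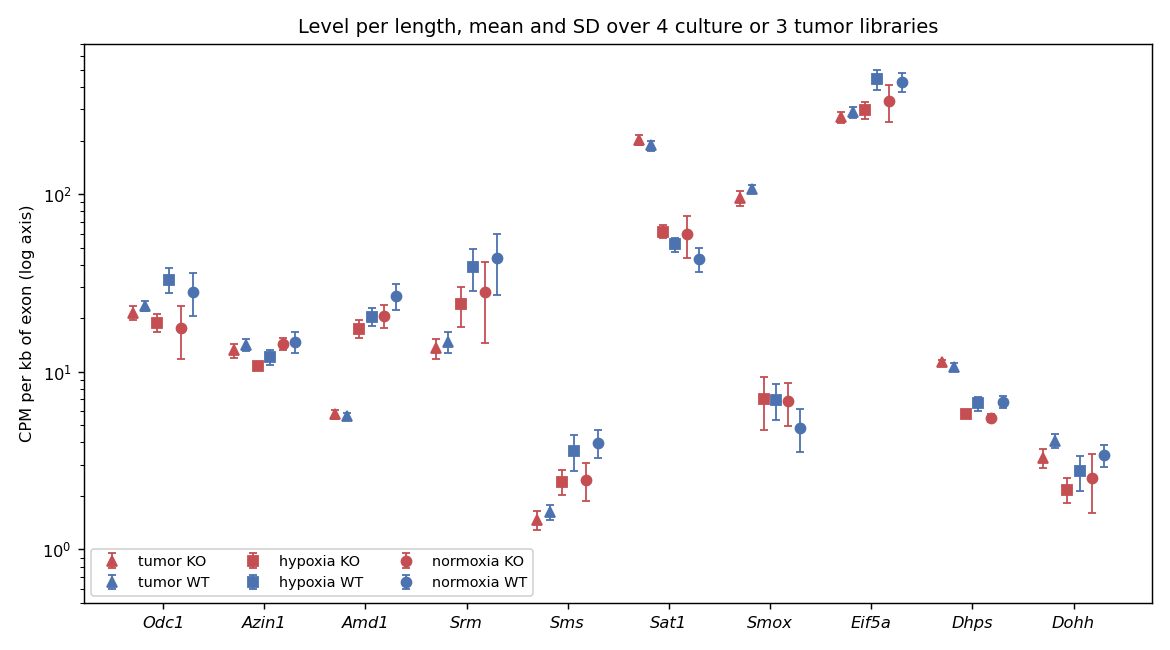
Level of each gene per kilobase of exon, on a log axis, as mean and SD over 3 tumor or 4 culture libraries, with KO in red and WT in blue. Eif5a lies highest in every group, between 271 and 444 CPM per kb, and Sat1 and Smox lie higher in the tumor samples than in the cultures.

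Levels compared between genes are CPM per kb of merged exons, here on the linear scale. Eif5a, the only translation factor of the 10, was the most abundant in all 6 groups, from 271 ± 17.6 CPM per kb in tumor KO to 444 ± 56.0 in hypoxia WT (SD, n = 3 and 4). Its 2 modifying enzymes were far below it, with Dhps between 5.5 and 11.4 and Dohh between 2.16 and 4.08 CPM per kb over the group means. In cultures Odc1 averaged 18.9 CPM per kb in hypoxia KO, 33.0 in hypoxia WT, 17.7 in normoxia KO and 28.3 in normoxia WT. Srm lay in the same range, from 24.0 CPM per kb in hypoxia KO to 43.5 in normoxia WT. Sms was the least abundant of the 10 in the tumor samples, at 1.47 ± 0.18 CPM per kb in KO and 1.63 ± 0.15 in WT (SD, n = 3 each).

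**Figure D2:**
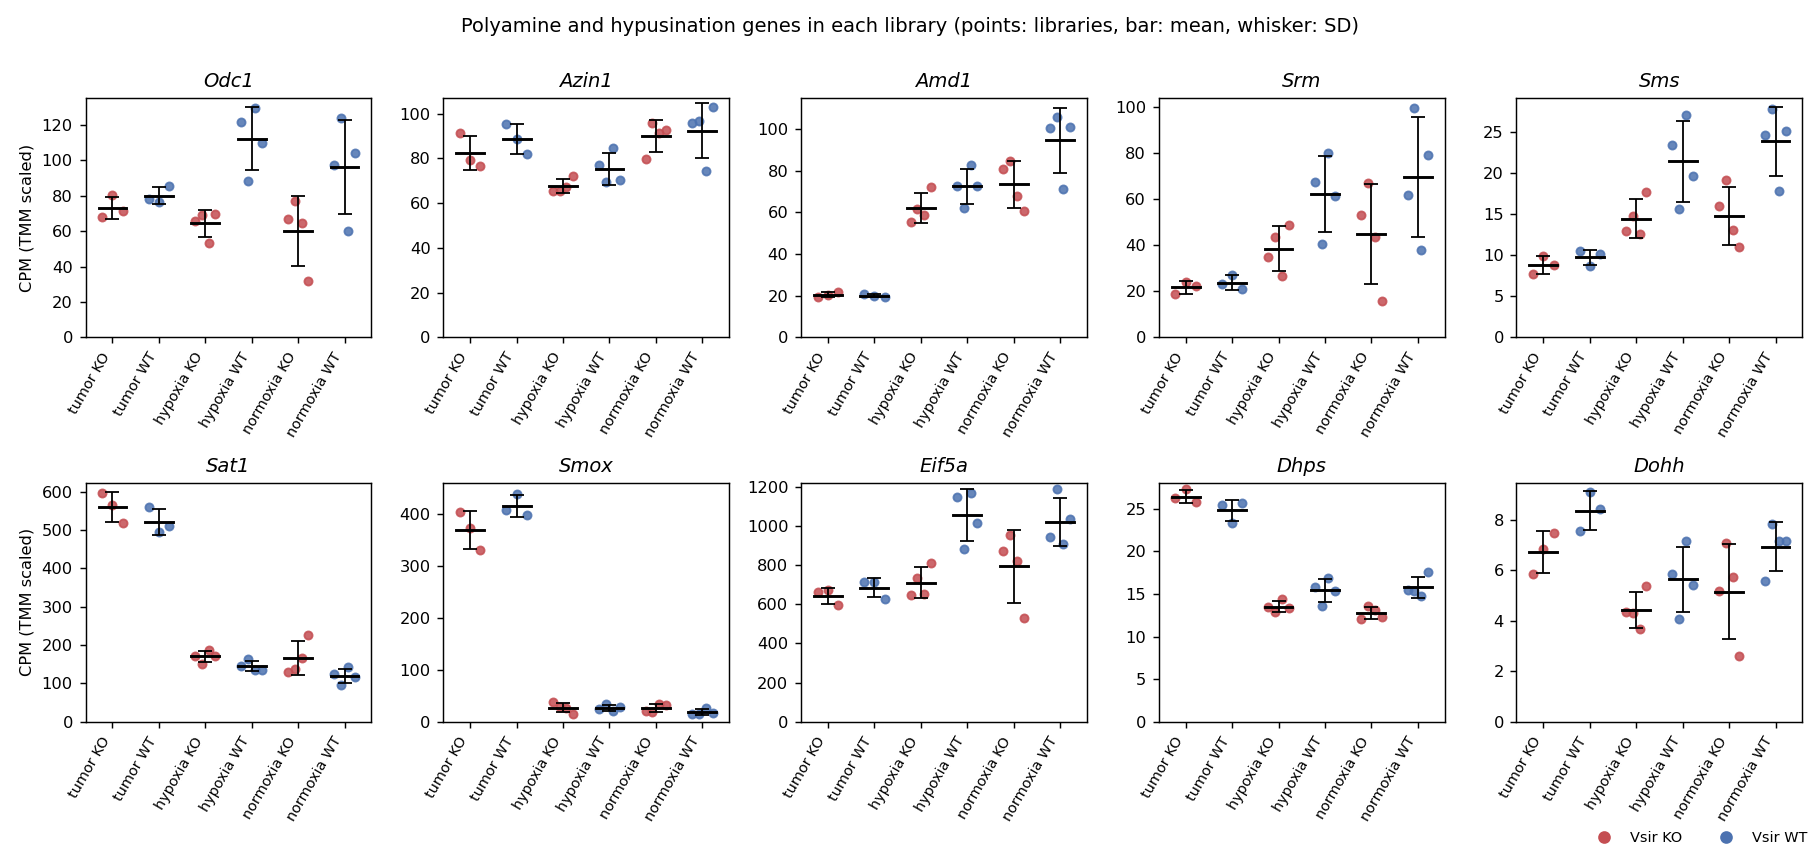
TMM-scaled CPM of each gene in each library, 1 point per library, with the mean and SD of each group, KO in red and WT in blue. Odc1 and Eif5a in hypoxia are lower in all 4 KO libraries than in any WT library, and Sat1, Smox, Amd1, Sms and Dhps have different levels in tumor samples and cultures.

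The order of the 6 groups differed between the genes, and in most orders the neighbours overlapped over libraries. Smox varied most, with 370 ± 36.4 CPM in tumor KO and 416 ± 21.5 in tumor WT (SD, n = 3 each), against group means of 18.9 to 27.3 CPM in the cultures, where neighbouring groups overlapped. The highest group mean of Smox was 22 times the lowest. Sat1 was likewise highest in the tumor samples, at 519 to 595 CPM in KO and 495 to 560 in WT, against 96.1 to 227 CPM in the 16 culture libraries. Amd1 showed the opposite order, with 19.2 to 21.5 CPM in tumor KO and 19.3 to 20.7 in tumor WT, against 55.4 CPM or more in every culture library. Sms was low in tumor too, at 7.73 to 9.92 CPM in KO and 8.72 to 10.5 in WT, against 11.06 or more in every culture library. Srm averaged 21.65 CPM in tumor KO and 23.7 in tumor WT, against 38.4 to 69.5 over the culture groups, with overlap between libraries. Dhps averaged 26.4 CPM in tumor KO and 24.8 in tumor WT, against 12.8 to 15.8 over the culture groups. Odc1, Eif5a and Azin1 varied least, with highest group means 1.87, 1.64 and 1.37 times the lowest. Tissue, experiment and library set cannot be told apart in these differences between tumor and culture, and they were not tested. Summed monocyte and macrophage marker levels were 11000 to 11400 CPM in tumor KO and 11300 to 12300 in tumor WT, against 2500 to 3340 in the cultures. The 8 cell cycle genes summed to 128 to 130 CPM in tumor KO and 130 to 132 in tumor WT, against 1300 to 2230 in the cultures. Genes of the mitochondrial genome summed to 1710 to 2070 CPM in tumor KO and 945 to 1720 in tumor WT, against 34400 to 56800 in the cultures. The part of these differences in the levels above was not tested.

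Most calls between KO and WT were in hypoxia, where Odc1, Srm, Sms and Eif5a fell in KO and Sat1, the acetyltransferase that starts polyamine breakdown, rose. When the KO effects in hypoxia and normoxia were tested against each other, 0 of the 10 genes passed. In normoxia Sms fell and none of the other 9 genes passed the test, with wide intervals for Srm, Odc1 and Dohh. In tumor samples none of the 10 passed. Tests used edgeR's quasi-likelihood test over all genes of the experiment with Benjamini-Hochberg adjustment and a threshold of 0.05, and fold changes are on the log2 scale, KO over WT, with standard errors (SE). In hypoxia 4 genes fell and 1 rose, where 17.6% of all 15018 tested genes fell and 17.4% rose, so 5 of 10 is set against 34.9% of all genes. With so many genes called, that count alone does not set the 10 apart. In normoxia 1 of 10 fell, where 4.17% of 13950 genes fell, 7.13% rose and 11.3% were called in either direction. In the tumor comparison 0 of 10 were called in edgeR, against 6.32% of 14370 genes (3.04% lower, 3.28% higher), and none had an unadjusted p under 0.05, nor was any called by DESeq2. An unadjusted edgeR p under 0.05 was found for 8 of the 10 in hypoxia and 6 in normoxia. The share of all genes with such a p is not given here. All 10 genes passed the filter on low counts in each comparison. The median log2 fold change of the 10 was -0.08 in tumor, -0.29 in hypoxia and -0.35 in normoxia, beside 0.01, -0.01 and -0.02 over all tested genes. Groups without any overlap between KO and WT libraries were found for 2 of the 10 genes in tumor, 2 in hypoxia and 1 in normoxia, where 26.8%, 32.6% and 19.9% of tested genes showed this in either direction. With scaling by library size alone in place of TMM, 2185 genes rose and 3175 fell in hypoxia (TMM: 2607 and 2638), and 726 rose and 951 fell in normoxia (TMM: 995 and 582), while the directions of the called genes named above were the same.

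**Figure D3:**
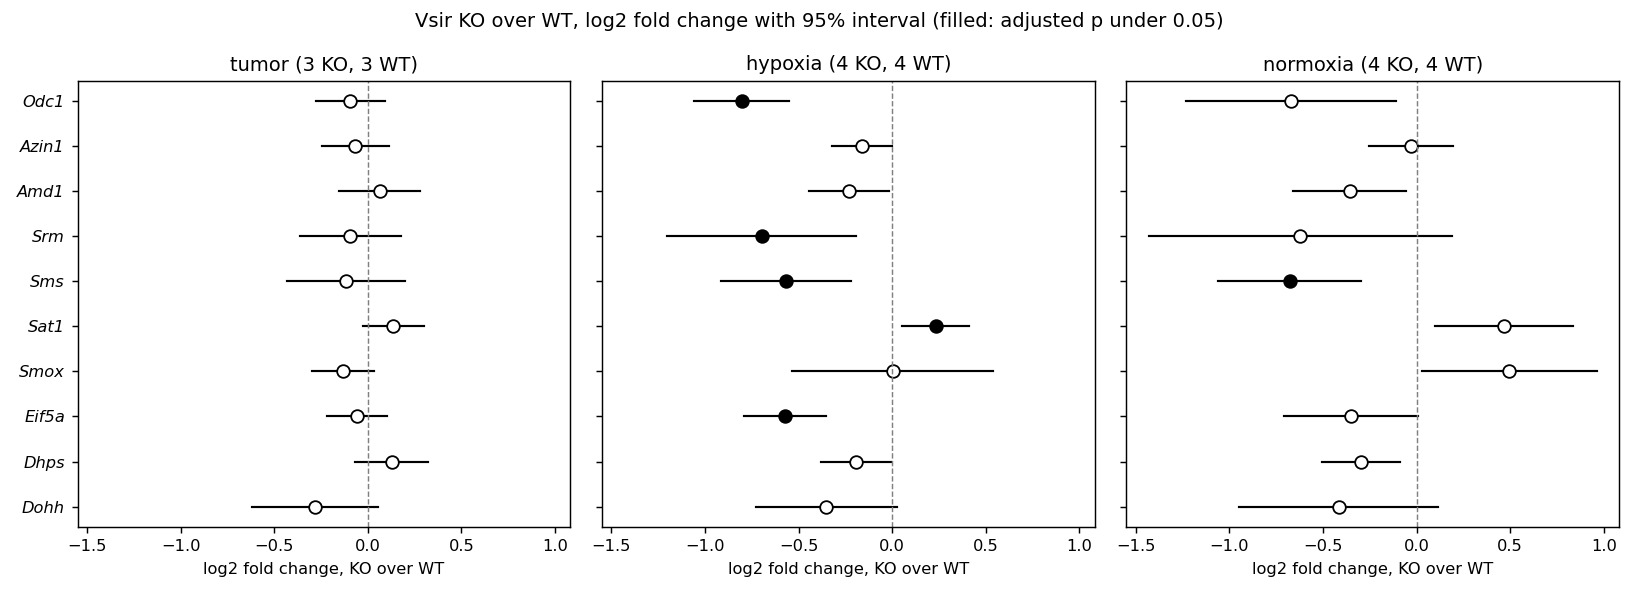
Log2 fold change of each gene, KO over WT, with its 95% interval, in tumor, hypoxia and normoxia, with filled points for adjusted p under 0.05 in edgeR. Filled points are Odc1, Srm, Sms, Eif5a (lower) and Sat1 (higher) in hypoxia and Sms (lower) in normoxia, and all 10 tumor intervals include 0.

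Odc1 (ENSMUSG00000011179, chromosome 12, 17544794 to 17551505, plus strand, GRCm38) encodes the enzyme of the first committed step. In hypoxia Odc1 had 65.7, 68.9, 53.2 and 69.9 CPM in KO replicates 1 to 4, against 122, 88.5, 129 and 110 CPM in WT replicates 1 to 4. Every KO library lay below every WT library, an order that 15.2% of tested genes showed in hypoxia. Odc1 fell by 0.80 on the log2 scale in hypoxia KO (SE 0.12, edgeR adjusted p = 0.000428). In normoxia it had 67.0, 76.8, 64.9 and 31.7 CPM in KO, against 97.3, 124, 60.2 and 104 CPM in WT. The normoxia groups overlapped through WT replicate 3, and the lowest value was KO replicate 4. The normoxia log2 fold change was -0.67 (95% interval -1.23 to -0.11, edgeR adjusted p = 0.105), and without those 2 libraries it was -0.62 (SE 0.10, adjusted p = 0.00135). In tumor samples Odc1 had 68.2, 80.3 and 71.3 CPM in KO, against 78.1, 76.5 and 85.4 CPM in WT, which overlapped, with a log2 fold change of -0.09 (95% interval -0.28 to 0.09).

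Odc1 protein is held in check by antizymes, which send it to the proteasome, and antizyme inhibitor, the product of Azin1 (chromosome 15, 38487427 to 38519266, minus strand), releases it. Azin1 was the most even of the 10 genes, with 65.3 to 71.9 CPM in hypoxia KO and 69.4 to 84.9 in hypoxia WT, and 79.9 to 96.1 in normoxia KO and 74.3 to 103 in normoxia WT. Its log2 fold changes were -0.07 (95% interval -0.25 to 0.11) in tumor, -0.16 (-0.32 to -0.003) in hypoxia and -0.03 (-0.26 to 0.20) in normoxia, with none passing, and in normoxia without the 2 libraries that stood apart it was -0.13 (edgeR adjusted p = 0.284). Of the antizymes and inhibitors Oaz1, Oaz2, Oaz3 and Azin2, 3 of the 4 could be tested in each experiment. Oaz2, an antizyme, rose in hypoxia KO, with 58.4 ± 5.51 CPM in KO and 46.0 ± 3.76 in WT (SD, n = 4 each, log2 fold change 0.34 ± 0.083 SE, edgeR adjusted p = 0.00881). None of the 3 passed in tumor or normoxia. Oaz1, the main antizyme, averaged 307 CPM in hypoxia KO and 316 in hypoxia WT.

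The next step needs decarboxylated S-adenosylmethionine, made by the product of Amd1 (chromosome 10, 40287458 to 40302186, minus strand). In hypoxia Amd1 had 55.4, 61.8, 58.7 and 71.95 CPM in KO, against 72.7, 62.2, 82.6 and 72.5 CPM in WT. KO replicate 4 overlapped the WT range and the log2 fold change of -0.23 (95% interval -0.44 to -0.01) had an adjusted p of 0.0900 in edgeR. In normoxia Amd1 had 80.9, 84.5, 67.8 and 60.4 CPM in KO, against 101, 106, 71.3 and 101 CPM in WT, overlapping through WT replicate 3. The normoxia log2 fold change was -0.36 (SE 0.14, edgeR adjusted p = 0.107), and without KO replicate 4 and WT replicate 3 it was -0.38 (SE 0.084, adjusted p = 0.00905). Amd2, a near-identical copy, could take some of the reads, and Amd1 held 70.2 to 78.9% of their summed counts. In tumor samples the Amd1 log2 fold change was 0.06 (95% interval -0.15 to 0.28).

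Spermidine synthase, the product of Srm (chromosome 4, 148591503 to 148594993, plus strand), had the widest spread between libraries. In hypoxia Srm had 34.8, 43.6, 26.6 and 48.8 CPM in KO, against 67.5, 40.4, 79.9 and 61.3 CPM in WT. WT replicate 2 lay inside the KO range, and the other 3 WT libraries were above all KO libraries. Srm fell by 0.70 on the log2 scale (SE 0.23, edgeR adjusted p = 0.0379). That call was lost when any of 5 of the 8 libraries (KO replicates 1, 2 and 3, WT replicates 1 and 3) was left out, with adjusted p up to 0.120. In normoxia Srm ranged from 15.8 to 66.8 CPM in KO and from 37.9 to 99.5 in WT, and the log2 fold change of -0.62 had a 95% interval of -1.43 to 0.19. Without the 2 libraries that stood apart it was -0.54 (edgeR adjusted p = 0.126). In tumor samples Srm was at 18.7 to 24.1 CPM in KO and 20.7 to 27.0 in WT.

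Spermine synthase, the product of the X-linked Sms (157443855 to 157492287, minus strand), fell in KO in both culture conditions. In hypoxia Sms had 12.9, 14.7, 12.6 and 17.7 CPM in KO, against 23.4, 15.6, 27.0 and 19.6 CPM in WT. KO replicate 4 exceeded WT replicate 2, and the other KO libraries were below all WT libraries. Sms fell by 0.57 on the log2 scale in hypoxia KO (SE 0.16, edgeR adjusted p = 0.0177). In normoxia it had 15.99, 19.2, 13.1 and 11.1 CPM in KO, against 24.6, 27.9, 17.9 and 25.1 CPM in WT. Only KO replicate 2 and WT replicate 3 overlapped, and Sms fell by 0.68 (SE 0.17, adjusted p = 0.0323, and 0.0033 without KO replicate 4 and WT replicate 3). The hypoxia call was lost without KO replicate 1, WT replicate 1 or WT replicate 3 (adjusted p up to 0.0610), and the normoxia call without any of 5 libraries, KO replicates 1 and 3 and WT replicates 1, 2 and 4 (adjusted p up to 0.0968). In tumor samples Sms was at 7.73, 9.92 and 8.79 CPM in KO, against 10.5, 8.72 and 10.1 CPM in WT, with a log2 fold change of -0.12 (95% interval -0.43 to 0.20).

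Breakdown starts with spermidine/spermine acetyltransferase, the product of the X-linked Sat1 (155213132 to 155216449, minus strand), or with direct oxidation of spermine by spermine oxidase, the product of Smox (chromosome 2, 131491496 to 131525922, plus strand). In hypoxia Sat1 had 172, 152, 186 and 172 CPM in KO, against 145, 164, 136 and 135 CPM in WT. WT replicate 2 exceeded KO replicate 2, and the other KO libraries were above all WT libraries. Sat1 rose by 0.23 on the log2 scale (SE 0.082, edgeR adjusted p = 0.0452), the smallest change among the 5 called genes. That call was lost in 6 of the 8 fits without 1 library (all but KO replicate 2 and WT replicate 2, adjusted p up to 0.127), and with scaling by library size alone (0.0817). In normoxia Sat1 had 131, 138, 167 and 227 CPM in KO, against 125, 96.1, 142 and 117 CPM in WT, and KO replicates 1 and 2 lay below WT replicate 3. The normoxia log2 fold change was 0.47 (95% interval 0.10 to 0.84, adjusted p = 0.0883), and 0.38 without the 2 libraries that stood apart (adjusted p = 0.0317).

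Smox showed no difference that passed. In hypoxia it had 37.6, 29.0, 26.5 and 15.99 CPM in KO, against 24.8, 34.7, 20.1 and 28.7 CPM in WT, so the KO libraries spanned the whole WT range. The log2 fold change was 0.002 with a 95% interval of -0.53 to 0.54, which leaves room for a change of either sign. In normoxia Smox had 21.2, 19.4, 33.7 and 32.0 CPM in KO, against 15.9, 15.9, 26.5 and 17.1 CPM in WT, overlapping through WT replicate 3. The normoxia log2 fold change was 0.50 (95% interval 0.03 to 0.97, edgeR adjusted p = 0.136), and 0.62 without the 2 libraries that stood apart (adjusted p = 0.0504). In tumor samples Sat1 and Smox had log2 fold changes of 0.14 (95% interval -0.03 to 0.30) and -0.13 (-0.30 to 0.03).

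Eif5a (chromosome 11, 69916714 to 69921958, minus strand) encodes the carrier of hypusine, a factor that helps ribosomes through stretches that stall, such as runs of proline, and aids termination. In hypoxia Eif5a had 647, 735, 651 and 810 CPM in KO, against 1150, 882, 1169 and 1017 CPM in WT. All KO libraries were below all WT libraries, and Eif5a fell by 0.57 on the log2 scale (SE 0.10, edgeR adjusted p = 0.00142). In normoxia it had 871, 957, 823 and 528 CPM in KO, against 945, 1188, 910 and 1037 CPM in WT, with KO replicate 2 inside the WT range. The normoxia log2 fold change was -0.35 (95% interval -0.71 to 0.01, adjusted p = 0.163), and -0.24 without the 2 libraries that stood apart (adjusted p = 0.0933). In tumor samples Eif5a was at 662, 672 and 595 CPM in KO, against 714, 715 and 629 CPM in WT, which overlapped, with a log2 fold change of -0.06 (95% interval -0.22 to 0.10). Odc1 and Eif5a kept their hypoxia calls in each of the 8 fits that left out 1 library, with adjusted p up to 0.00244 for Odc1 and 0.00689 for Eif5a.

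The genes of both hypusine enzymes passed in no KO comparison. Dhps (chromosome 8, 85071757 to 85075162, plus strand) had 12.1, 13.6, 13.1 and 12.3 CPM in normoxia KO, against 15.5, 15.3, 14.8 and 17.6 CPM in normoxia WT. All 4 KO libraries were below all 4 WT libraries, as for 9.38% of tested genes, but the log2 fold change of -0.30 (SE 0.095) did not pass (edgeR adjusted p = 0.0637). It was -0.30 with an adjusted p of 0.0495 without the 2 libraries that stood apart. In tumor samples the order was the reverse, with 26.2, 27.3 and 25.8 CPM in KO, against 25.4, 23.3 and 25.7 CPM in WT. The 3 KO libraries were above the 3 WT libraries, as for 10.3% of tested genes, by 0.11 CPM at the closest pair, and the log2 fold change was 0.13 (95% interval -0.07 to 0.32, adjusted p = 0.477). In hypoxia Dhps was at 12.8 to 14.4 CPM in KO and 13.6 to 16.9 in WT, with a log2 fold change of -0.19 (adjusted p = 0.0969).

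Dohh (chromosome 10, 81384428 to 81388352, plus strand), which completes hypusine, was the gene of lowest count, with 60 to 264 reads per library. In tumor samples it had 5.85, 6.86 and 7.47 CPM in KO, against 7.55, 9.10 and 8.44 CPM in WT. All KO libraries were below all WT libraries, as for 16.5% of tested genes, and the log2 fold change was -0.28 (95% interval -0.62 to 0.06, edgeR adjusted p = 0.336). In hypoxia the log2 fold change was -0.35 (-0.73 to 0.03) and in normoxia -0.42 (-0.95 to 0.12), neither passing. Without the 2 libraries that stood apart the normoxia value was -0.18 (edgeR adjusted p = 0.473). Dohh, Amd1 and Amd2 share chromosome 10 with the targeted gene Vsir (60346851 to 60372684), and the part of genome around the KO allele in their values was not tested.

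Reads of some of these genes can be split with near-identical sequences, since how multiply mapped reads were counted is not given in the sources used here. Stretches of at least 200 bases at 95% identity or more were found in 11 other annotated genes for Odc1, 7 for Amd1, 7 for Sms, 2 for Sat1, 1 each for Azin1, Eif5a and Dohh, and 0 for Srm, Smox and Dhps. The other genes held 4.56 to 18.8% of the summed counts for Odc1, 27.8 to 39.3% for Amd1, 6.07 to 21.5% for Sms up to 9.35% for Dohh and under 1% for Sat1, Azin1 and Eif5a. Levels of Odc1, Amd1 and Sms are therefore less certain than those of Srm, Smox and Dhps. Exons of Dohh share 972 of their 2048 bases with Gm48551 on the same strand, so the level of Dohh is uncertain too, and Gm48551 averaged 0.212 CPM or less in each group. Azin1 overlaps Gm49077 on the other strand by 358 bases, and Dhps overlaps Wdr83 on the other strand by 128 bases. Neither Gm49077, where it could be tested, nor Wdr83 passed in a KO comparison.

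Hypoxia over normoxia, set against each other within a genotype, gave few changes in these genes. In KO cultures Azin1 fell, and in WT cultures Azin1 and Amd1 fell, and the other 8 genes passed in neither. In this fit of all 16 culture libraries 51.8% of 15325 genes were called in KO, 25.5% lower and 26.3% higher, and 51.8% in WT, 24.9% lower and 26.8% higher, beside 1 and 2 of the 10 genes. Scaling by library size alone moved the log2 fold changes of the 10 by a median of -0.10 in KO and -0.14 in WT. It gave 3359 higher and 4932 lower genes in KO (TMM: 4030 and 3910) and 3170 higher and 5503 lower in WT (TMM: 4110 and 3822). The difference in oxygen cannot be told apart from that in culture time and count table.

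Azin1 averaged 67.6 ± 3.05 CPM in hypoxia KO and 90.1 ± 7.04 in normoxia KO (SD, n = 4 each), a log2 fold change of -0.42 (SE 0.093, edgeR adjusted p = 0.000933). In WT cultures it averaged 75.4 ± 7.11 CPM in hypoxia and 92.4 ± 12.5 in normoxia, a log2 fold change of -0.29 (SE 0.092, adjusted p = 0.0133, and 0.0521 without normoxia WT replicate 4). Of the other antizyme and inhibitor genes, Azin2, the second antizyme inhibitor, rose in hypoxia over normoxia in KO (0.54, edgeR adjusted p = 0.00677) and had a value of 0.07 in WT that did not pass. Oaz2 rose in both genotypes, by 0.61 in KO (edgeR adjusted p = 0.00127) and 0.66 in WT (adjusted p = 0.000764) on the log2 scale. Amd1 averaged 72.5 ± 8.33 CPM in hypoxia WT and 94.5 ± 15.7 in normoxia WT, a log2 fold change of -0.38 (SE 0.13, edgeR adjusted p = 0.0174). The Amd1 call was lost without normoxia WT replicate 2 or hypoxia WT replicate 2, with adjusted p up to 0.0633. In KO cultures the Amd1 log2 fold change was -0.25 (95% interval -0.52 to 0.02). For Odc1 it was 0.09 in KO (95% interval -0.40 to 0.59) and 0.22 in WT (-0.27 to 0.72).

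**Figure D4:**
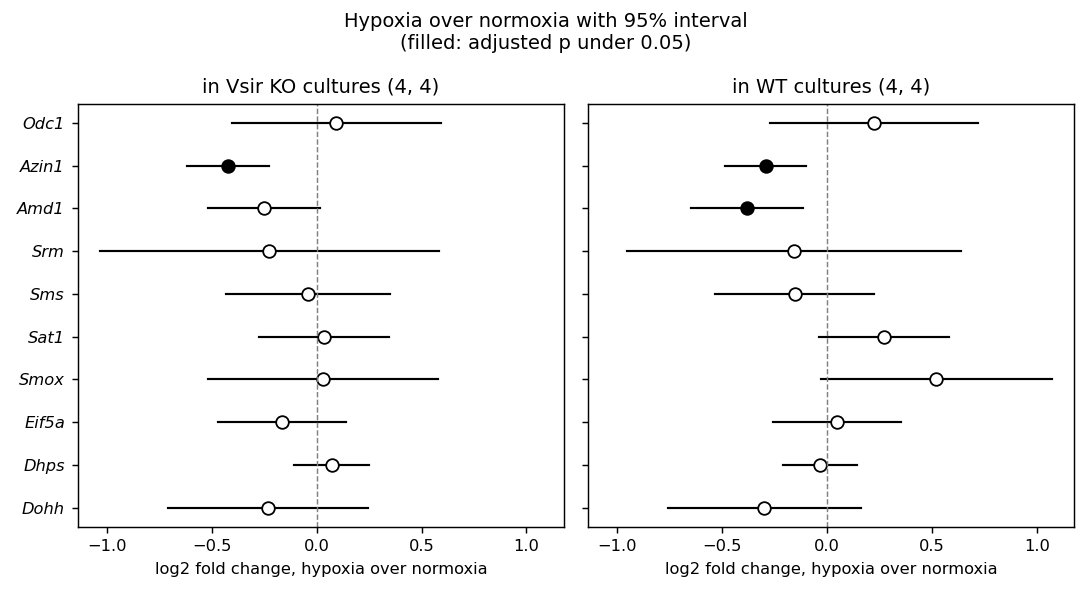
Log2 fold change of each gene, hypoxia over normoxia, with its 95% interval, in KO and in WT cultures (4 hypoxia and 4 normoxia libraries each), filled where the edgeR adjusted p was under 0.05. Filled points are Azin1 in both genotypes and Amd1 in WT, all below 0.

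Leaving out normoxia KO replicate 4 and normoxia WT replicate 3 changed these counts. Then 4 genes fell in hypoxia over normoxia in KO, namely Amd1 (-0.34), Azin1 (-0.41), Eif5a (-0.32) and Dohh (-0.45). In WT cultures Amd1 (-0.49) and Azin1 (-0.38) fell, and Sat1 (0.36) and Smox (0.73) rose. Leaving out those 2 libraries gave 5 called genes in normoxia KO over WT in place of 1, with Odc1, Amd1, Sms and Dhps lower and Sat1 higher. Over all genes the normoxia calls rose as well, to 2881 in place of 1577. Normoxia KO replicate 4 was the lowest of its group for 6 of the 10 genes, and 1.32 log2 units below the group mean for Srm. Normoxia WT replicate 3 was the lowest of its group for 7 of the 10, and 0.79 below for Srm. The cell cycle genes summed to 1970 CPM in KO replicate 4 and 1850 to 2230 over normoxia KO, and to 1722 CPM in WT replicate 3, the lowest of the normoxia WT range of 1720 to 2200. The part of the cell cycle genes in those low values was not tested. Among hypoxia libraries, WT replicate 2 was the lowest of its group for 8 of the 10 genes and WT replicate 3 the highest for 8. Without hypoxia WT replicate 2, 8 of the 10 genes were called in hypoxia in place of 5, and 5703 of all genes in place of 5245.

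**Figure D5:**
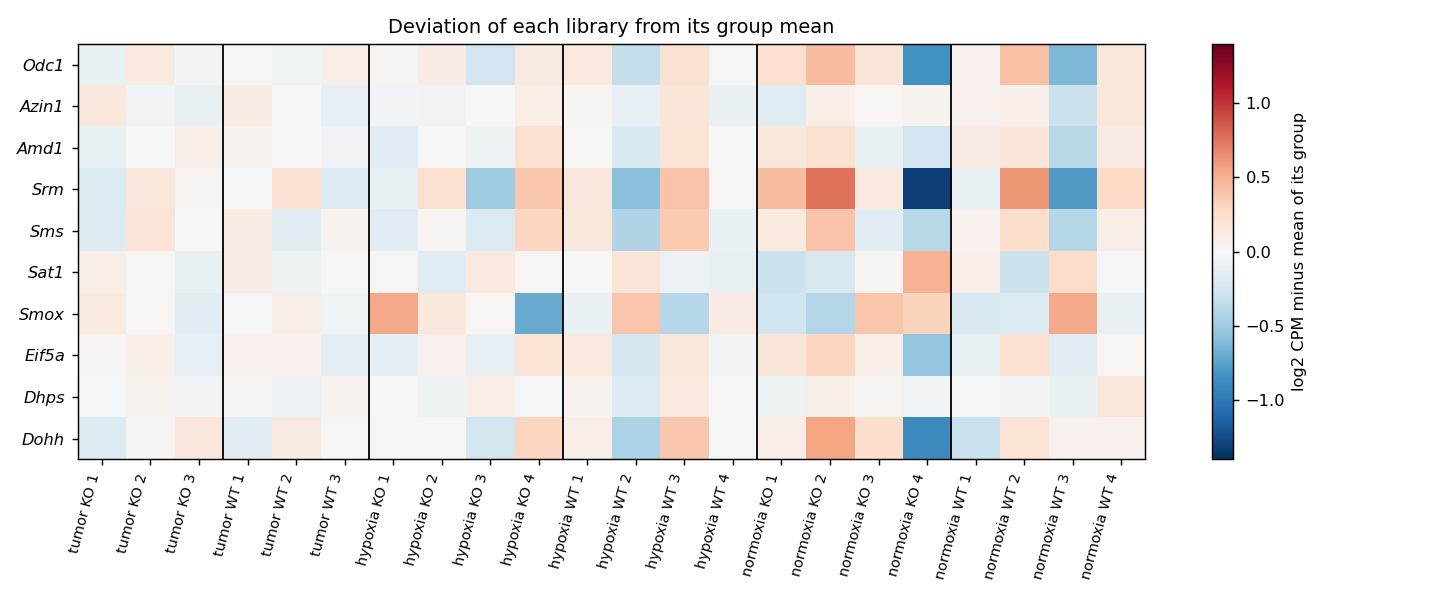
Log2 CPM of each gene in each library minus the mean of its group, red above and blue below. Srm, Odc1 and Dohh in normoxia KO replicate 4 are the darkest blue, at -1.32, -0.85 and -0.89, and tumor libraries stay between -0.20 and 0.20.

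Whether the KO effect differed between settings was tested as a difference of effects. For hypoxia minus normoxia, 0 of the 10 passed in edgeR, 0 had an unadjusted p under 0.05 and 0 passed in DESeq2, beside 0.476% of all 15325 genes (0.287% lower, 0.189% higher). The intervals were wide, with a difference of -0.13 (95% interval -0.83 to 0.57) for Odc1 and -0.07 (-1.20 to 1.07) for Srm on the log2 scale. For tumor minus hypoxia, 0 of the 10 passed in edgeR and in DESeq2, beside 7.7% of 16685 genes (4.77% lower, 2.93% higher), and Eif5a and Dhps had an unadjusted p under 0.05. The difference was 0.68 for Odc1 (95% interval -0.01 to 1.36, adjusted p = 0.237) and 0.48 for Eif5a (0.06 to 0.90, adjusted p = 0.164). Fitted on the hypoxia and tumor libraries alone, the differences were 0.67 for Odc1 (SE 0.17, adjusted p = 0.0134) and 0.47 for Eif5a (SE 0.15, adjusted p = 0.0467), so that both passed, and the other 8 did not. That fit was chosen after seeing the data, and its share of calls over all genes is not given here. The 7.7% above belongs to the fit of all 22 libraries. A positive difference means a log2 fold change further below 0 in hypoxia than in tumor for these genes.

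Of 8 tested genes of ornithine and arginine supply, 5 fell and 0 rose in hypoxia KO, 3 fell and 1 rose in normoxia KO, and 1 fell and 1 rose in tumor KO, with medians of -0.56, -0.66 and -0.08. Over all tested genes 17.6% fell in hypoxia, 4.17% in normoxia and 3.04% in tumor, and no test of the list was made. Arg1, the arginase that releases ornithine, had 84.5, 44.4, 42.8 and 29.3 CPM in hypoxia KO, against 162, 171, 192 and 105 CPM in hypoxia WT, without overlap (log2 fold change -1.66 ± 0.31 SE, edgeR adjusted p = 0.00360). In tumor samples, where it was far more abundant, Arg1 had 3141, 3716 and 3319 CPM in KO, against 5050, 5069 and 4679 CPM in WT, and fell by 0.50 (SE 0.078, adjusted p = 0.00212). Arg2, the mitochondrial arginase, rose in tumor KO by 0.74 (SE 0.13, adjusted p = 0.00523) and in normoxia KO by 0.73, and had a log2 fold change of -0.03 in hypoxia. In normoxia the genes that fell were Arg1 (-2.81), Ass1 (-1.03) and Slc7a2 (-1.41), an arginine transporter. The Arg1 value there is imprecise (SE 0.71, edgeR adjusted p = 0.039). Arg1 had 1.14 to 7.74 CPM in normoxia KO, from 29 to 185 reads, and 5.79 to 46.7 CPM in normoxia WT, which overlapped. Ass1, which makes argininosuccinate in arginine synthesis, fell in hypoxia KO, with 45.5 ± 3.09 CPM in KO and 117 ± 9.96 in WT (SD, n = 4 each), and the arginine transporter gene Slc7a1 (-0.56) and the proline and ornithine enzyme gene Aldh18a1 (-0.57) fell too.

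Methionine salvage recycles the methylthioadenosine that spermidine and spermine synthesis release. Of 8 genes of S-adenosylmethionine supply and salvage, 5 fell in hypoxia KO and 0 rose, 1 fell in normoxia KO and 0 passed in tumor KO, with medians of -0.46, -0.38 and 0.003, beside the same shares over all genes. Mtap, the first salvage enzyme, averaged 8.90 ± 1.63 CPM in hypoxia KO and 15.1 ± 2.97 in hypoxia WT (SD, n = 4 each, log2 fold change -0.76 ± 0.16 SE, edgeR adjusted p = 0.00382). The later salvage genes Mri1 (-0.48) and Adi1 (-0.47) fell in hypoxia as well, and so did Ahcy (-0.72), which clears S-adenosylhomocysteine. The gene that fell in normoxia was Adi1 (-0.50). Mat2a, which makes S-adenosylmethionine, did not pass (-0.17, adjusted p = 0.334).

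Of 2 tested genes of polyamine oxidation and acetylation in hypoxia, Hdac10, a polyamine deacetylase, rose by 0.61 at 2.86 ± 0.41 CPM in KO and 1.87 ± 0.49 in WT, and Paox, the oxidase of acetylated polyamines, did not pass (0.18). Of 4 tested transport genes, Atp13a2, a lysosomal polyamine exporter, fell by 0.61 and Slc3a2 by 0.27, while Slc22a3 rose by 0.68. Beside Eif5a, 5 genes were listed that are not hypusine enzymes, namely its paralog Eif5a2, Eef2, Dph1, Dph2 and Dph5. Of these, Dph1 (-0.66) and Eef2 (-0.17) fell in hypoxia KO, and Eif5a2 did not pass (-0.32). In normoxia 0, 1 (Slc3a2, -0.37) and 0 genes of these 3 lists passed, and in tumor none did. Calls over all tested genes were 34.9% in hypoxia, 11.3% in normoxia and 6.32% in tumor. No test of these lists was made.

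Among 7 tested regulators listed with the pathway, Max (0.33) and Mxd1 (0.49), whose product competes with MYC for MAX, rose in hypoxia KO and Hif1a (-0.31) fell. In normoxia, of 6 tested, Mxd1 rose (0.57) and Hif1a fell (-0.43). These counts stand beside calls for 34.9% of all tested genes in hypoxia, 11.3% in normoxia and 6.32% in tumor. Myc, whose protein binds Odc1, averaged 96.9 ± 12.6 CPM in hypoxia KO and 101 ± 10.1 in hypoxia WT (SD, n = 4 each), a log2 fold change of -0.06 that did not pass (edgeR adjusted p = 0.678). In normoxia Myc averaged 62.2 ± 32.0 CPM in KO and 117 ± 47.5 in WT (-0.89 ± 0.45 SE, adjusted p = 0.199). In tumor samples Myc fell by 0.63, with 22.3 ± 3.50 CPM in KO and 35.3 ± 5.46 in WT (SD, n = 3 each, adjusted p = 0.0138), while none of the 10 genes passed there. Stat3 had log2 fold changes of 0.14 in tumor, 0.17 in hypoxia and 0.30 in normoxia, with none passing.

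Markers of cell types moved between the same groups. The counts below stand beside 17.4% higher and 17.6% lower over all tested genes in hypoxia KO over WT. In normoxia these shares were 7.13% and 4.17%, and in tumor 3.28% and 3.04%. In hypoxia all 10 neutrophil genes rose in KO and summed to 40800 to 52500 CPM in KO and 16900 to 23300 in WT. All 8 eosinophil genes rose, summing to 2290 to 4060 CPM in KO and 1140 to 1820 in WT, and so did all 8 mast cell and basophil genes, at 760 to 1100 in KO and 489 to 748 in WT. All 4 tested erythroid genes fell, with sums of 8.01 to 16 CPM in hypoxia KO and 34.5 to 117 in hypoxia WT, and the 8 MHC class II and dendritic cell genes summed to 463 to 1070 in KO and 871 to 1360 in WT. The 8 cell cycle genes overlapped, at 1300 to 1860 CPM in hypoxia KO and 1360 to 1730 in hypoxia WT, with 1 of 8 lower. In normoxia 8 of the 10 neutrophil genes rose, with sums of 29300 to 40900 CPM in KO and 19200 to 26000 in WT. In normoxia 5 of 7 tested MHC class II and dendritic cell genes rose too, with sums of 304 to 642 CPM in KO and 139 to 259 in WT, unlike hypoxia, where 1 of 8 fell and none rose. All 7 tested mast cell and basophil genes rose, with sums of 87.2 to 123 CPM in normoxia KO and 42.4 to 60.6 in normoxia WT, and 4 of 7 eosinophil genes, with sums of 122 to 183 in KO and 93.5 to 120 in WT. In tumor samples 6 of the 8 MHC class II and dendritic cell genes rose, with sums of 20700 to 27800 CPM in KO and 13600 to 17400 in WT. Tumor neutrophil genes summed to 432 to 477 CPM in KO and 340 to 371 in WT, with Camp at 0 in both and Ngp at 0 in WT, and T and NK genes to 8.55 to 14.4 in KO and 22.8 to 46.7 in WT. The part of these cell type differences in the values of the 10 genes was not tested.

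The genes with profiles most like Odc1 and Eif5a over the 6 groups were ranked by the root mean square difference of centred log2 CPM over 8274 genes. The nearest to Odc1 were Ranbp1 (0.056), a cofactor of nuclear transport, Hmgn1 (0.073), a nucleosome-binding protein, Suclg2 (0.089), Slc25a4 (0.11) and Qdpr (0.11), where the median gene was 0.53 away. Eif5a, the closest to Odc1 among the other genes described here, was 0.23 away and ranked 167. Further off, Dohh ranked 1061, Azin1 1326, Sms 2979, Dhps 3323, Srm 4145, Amd1 6683, Sat1 6952 and Smox 7961. The nearest to Eif5a were Sae1 (0.064), a subunit of the SUMO activating enzyme, Mrps5 (0.066), Nln (0.072), Phb2 (0.076) and Ptges3 (0.077), where the median gene was 0.51 away. By likeness to Eif5a, Odc1 ranked 610. The likeness rests on 6 group means from 22 libraries and was not tested.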

How the data were processed

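Gene counts deposited by the authors were used as raw read counts, from 1 table each for normoxia, hypoxia and tumor. Per the submitters' processing notes, Subread, featureCounts and DESeq2 were used with build GRCm38.p6. Their versions, the strand setting and the handling of multiply mapped reads are not given in the sources used here. Per the labels' protocols, libraries were made with the Takara SMART-Seq kit from 100 ng of total RNA. Each deposited table lists only genes with a summed count of 2 or more, and genes absent from 1 table were taken as 0 in fits across tables. The authors' DESeq2-normalized tables were not used. The 8 KO culture columns carry a name of their own and were read as KO because the remaining columns name WT.

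Tests used edgeR 4.0.16 (filterByExpr, TMM, robust quasi-likelihood fit, Benjamini-Hochberg over all tested genes, threshold 0.05) in R 4.3.3, within each experiment for KO over WT. Hypoxia over normoxia and its difference between genotypes were fitted on the 16 culture libraries, and tumor minus hypoxia on all 22. DESeq2 1.42.0, other scalings, no filter, a fold threshold of 1.2 and omission of single libraries were alternatives. Standard errors are the log2 fold change over the root of F, and 95% intervals use the fit's degrees of freedom. The fitting script was tested on simulated data. Positions and exon lengths are from GENCODE M21, shared sequences were found with BLAST+ 2.17.0, and upstream sequences are from RefSeq. All 10 genes are named in each comparison, and from each pathway list at most 4 called genes in order of p. The genes and lists were chosen with earlier results of these data known. The lowest chi-square per degree of freedom between 2 replicates was 4.57 over 30 pairs, so none was counted as a duplicate. Replicate numbers were not used as pairs. The 2 normoxia libraries that stood apart were left out together as an alternative chosen after seeing the data.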

Additional observations from a re-analysis of the deposited data

Results flagged for a closer look

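In normoxia WT, replicate 3 lay far from the other 3 libraries for a pair of genes. Amd1 had 71.29 CPM there, the lowest of its group, and Smox had 26.51 CPM, the highest. These were 2 of 40 groups of 4 libraries examined, and chance marks about 1 in 20. This library is one of the 2 that stood apart in the principal component analysis, and without both the normoxia log2 fold change was -0.38 for Amd1 and 0.62 for Smox.

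Dhps had opposite orders in 2 experiments without overlap between KO and WT. Its log2 fold change was 0.1268 in tumor, with all KO libraries above all WT libraries, and -0.2975 in normoxia, with all KO libraries below all WT libraries. The difference between these 2 effects was not tested, and neither effect alone passed in edgeR.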

How the results depend on the processing

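The calls of Odc1 and Eif5a in hypoxia held in each setting run, those of Srm, Sms and Sat1 in hypoxia and of Sms in normoxia did not. Counting error bears on Dohh, which had 60 to 264 reads per library. Unless a construction is named, the cause of a change was not tested. A fold threshold of 1.2 asks for larger changes and left 2 of the 10 genes called in hypoxia, 0 in normoxia and 0 for hypoxia over normoxia in WT. Over all genes it left 1959 in hypoxia, 416 in normoxia, 333 in tumor, 4996 and 4901 for hypoxia over normoxia in KO and WT, 34 for hypoxia minus normoxia and 566 for tumor minus hypoxia. DESeq2 called 3 of the 10 genes and 2395 of all genes in normoxia, and 201 of all genes for hypoxia minus normoxia. With library size alone, 2 of the 10 were called in normoxia, and these log2 fold changes turned sign: Smox in hypoxia KO over WT (-0.040), Odc1 (-0.014), Sat1 (-0.043), Smox (-0.054) and Dhps (-0.021) for hypoxia over normoxia in KO, and Eif5a for hypoxia over normoxia in WT (-0.087). With no filter on low counts, 1363 genes were called in tumor and Smox was at -0.0027 in hypoxia. With all 22 libraries in one fit, 5 of the 10 genes and 3026 of all genes were called in normoxia, and 3 of the 10 in hypoxia. With the hypoxia and tumor libraries alone, 2 of the 10 passed for tumor minus hypoxia, and the share over all genes in that fit is not given here.

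Without normoxia KO replicate 4 and WT replicate 3 together, 5 of the 10 genes and 2881 of all genes were called in normoxia, 4 of the 10 for hypoxia over normoxia in KO, 4 in WT, and 125 of all genes for hypoxia minus normoxia. For hypoxia over normoxia the share of all genes called in that fit is not given here. The Odc1 value for hypoxia over normoxia was then -0.12 in KO, that of Eif5a -0.0010 in WT, and that of Dohh for hypoxia minus normoxia -0.17.

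Same-number KO and WT libraries had correlations of their deviations of 0.188, 0.08 and 0.216 in tumor, -0.161 to 0.0194 in hypoxia and -0.0563 to 0.37 in normoxia. Each tumor KO library matched the WT library of its own number best. The numbers were still not read as pairs, and the tumor fits above take no account of them. With the replicate block, 3 of the 10 genes were called in hypoxia, 4 in normoxia and 0 for hypoxia over normoxia in WT. Over all genes the block gave 2266 calls in tumor, in place of 908, and 40 for hypoxia minus normoxia. Smox was then at -0.024 in hypoxia.

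Leaving out 1 library at a time gave 2 to 8 called genes of the 10 in hypoxia, 0 to 4 in normoxia, and 1 to 4 in KO and 1 to 3 in WT for hypoxia over normoxia. Over all genes it gave 444 to 1072 in tumor, 3859 to 5703 in hypoxia, 469 to 2233 in normoxia and 40 to 100 for hypoxia minus normoxia. Log2 values that took both signs, none of them called, were, for KO over WT, Srm in tumor (-0.18 to 0.0041), Smox in hypoxia (-0.18 to 0.19) and Azin1 in normoxia (-0.12 to 0.020). For hypoxia over normoxia in KO they were Odc1 (-0.12 to 0.23), Srm (-0.51 to 0.027), Sms (-0.16 to 0.10), Sat1 (-0.069 to 0.22) and Smox (-0.16 to 0.22), and in WT Srm (-0.36 to 0.062), Eif5a (-0.00062 to 0.13) and Dhps (-0.075 to 0.024). For hypoxia minus normoxia they were Odc1 (-0.34 to 0.038), Srm (-0.35 to 0.19), Sms (-0.011 to 0.26) and Dohh (-0.15 to 0.26), and for tumor minus hypoxia Smox (-0.35 to 0.016), Azin1 (-0.019 to 0.11) and Dohh (-0.11 to 0.16).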
